A study of Homo sapiens with 16 samples.

Results

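The mRNAs described here come from 34 genes of translation initiation: the factors eIF1, eIF1A, eIF2, eIF3, eIF5, eIF5B and eIF6, the exchange factor eIF2B, the 4 eIF2α kinases, and 3 genes that are named after eIF1A or eIF2 but encode other proteins (EIF1AD, EIF2A and EIF2D). They were taken by name, not by any measured value, and all 34 were found among the 60107 genes of the count tables through GENCODE release 44. Of these, 13 encode subunits of eIF3, the largest of these factors.

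Cytoplasmic RNA came from U2OS-TR, a human osteosarcoma line that stably carries the tetracycline repressor. One derivative line also carried an integrated, FLAG-tagged ΔN-RNMT under a CMV promoter with tetracycline operators. RNMT is the enzyme that methylates the guanosine of the mRNA cap, and ΔN-RNMT lacks its N-terminal part and carries a mutation that makes it catalytically inactive, so the question asked was which mRNAs change when cap methylation in the cytoplasm is inhibited. That line gave 5 uninduced libraries (labelled Control) and 5 induced ones, with 1 μg/ml doxycycline added 48 h after plating and cells collected 24 h later. The parental line, which has the repressor but no transgene, gave 3 libraries without and 3 with doxycycline and measured the effect of the drug itself. The protocol recorded with the libraries lists doxycycline for every one of them, and the titles were followed instead. Both lines kept their own endogenous RNMT gene. The line with the transgene is a single clone, chosen by its authors among several for the highest expression of ΔN-RNMT, and the libraries of the parental line were sequenced on another instrument with longer reads, so the line, the instrument and the read length cannot be told apart.

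Initiation begins when eIF1, eIF1A, eIF3, eIF5 and the eIF2-GTP-initiator tRNA complex gather on the small ribosomal subunit, and the loaded subunit then scans the mRNA from its cap to the start codon. eIF5 makes eIF2 hydrolyse its GTP there, eIF5B promotes the joining of the large subunit, and eIF6 keeps large subunits from joining too early. eIF2B recharges eIF2 with GTP, and the 4 kinases block that step in stressed cells by phosphorylating the α subunit of eIF2. Several mRNAs for translation proteins start with a C and a run of pyrimidines, the TOP motif, through which their own translation is regulated.

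Start sequences are shown because the TOP motif is defined by the first bases of the mRNA, where the cap sits. The windows are from RefSeq promoter sequences of GRCh38.p14 and hold 10 bases before and 20 bases from the annotated start, on the gene's own strand. A run in capitals is a C at the start position followed by at least 4 bases that are each C or T, together with the unbroken run of C and T behind it. The first 7 windows hold the motif and are all the members that do, and the last 4 are members called in the comparisons below whose start does not.
EIF3D, chr22:36529147-36529176, minus strand: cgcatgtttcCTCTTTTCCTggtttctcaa
EIF3K, chr19:38619178-38619207, plus strand: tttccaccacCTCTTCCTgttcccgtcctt
EIF3F, chr11:7987327-7987356, plus strand: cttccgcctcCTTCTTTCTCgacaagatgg
EIF3M, chr11:32583821-32583850, plus strand: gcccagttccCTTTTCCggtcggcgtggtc
EIF2A, chr3:150546777-150546806, plus strand: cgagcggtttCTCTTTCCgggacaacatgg
EIF2D, chr1:206612446-206612475, minus strand: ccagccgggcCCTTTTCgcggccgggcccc
EIF2S3, chrX:24054946-24054975, plus strand: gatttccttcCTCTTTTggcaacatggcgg
EIF3B, chr7:2354817-2354846, plus strand: tcgcacgcacatggctgggctgtagccgtc
EIF6, chr20:35284698-35284727, minus strand: tggtaagctggtgtgaggggaacctgggag
EIF1B, chr3:40309697-40309726, plus strand: cattttgtgcgagaagccgcagcgccgcct
EIF2B1, chr12:123633667-123633696, minus strand: gtacggaagtgcgccggaagtggggtgcgg
A window was at hand for 27 of the 34 genes, 30 windows in all, and 7 of the 27 genes (25.9%) held the motif. Of the 35116 RefSeq promoters searched in the same way, 4.07% did, which is a share of promoters and not of genes. EIF2S2, EIF2AK1, EIF3A, EIF3E, EIF3G, EIF3H and EIF3L had no window, and EIF2B4, EIF5 and EIF6 have 2 each, of which the first is shown for EIF6 and none holds the motif. A match is a description of the letters at 1 annotated start, and other starts in use in these cells were not seen. Of the 7 genes with the motif, 2 fell with ΔN-RNMT (EIF3D and EIF3K), 1 rose (EIF2A), and 4 were not called. Of the 19 tested genes whose window lacked it, 2 fell and 4 rose, and over all genes tested 19.8% fell and 20.0% rose, so no difference by motif is read from these few genes.

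Depth ran from 18991617 to 23251834 gene counts in uninduced libraries with the transgene and from 12527183 to 20781875 in induced ones, of which library 2 was the deepest. Parental libraries held from 1473286 to 3214808. RNMT checked the labels: it rose by 2.22 (SE 0.23, adjusted P = 0.00806) on the log2 scale and its induced libraries, from 265 to 457 CPM (counts relative to the TMM-scaled library total), all lay above the uninduced ones, from 55.5 to 112. Of the 7 mesenchymal and bone markers, 5 were expressed well enough to be tested (VIM, FN1, SPARC, COL1A1 and RUNX2), TWIST1 was at 0 in the transgene line and ALPL near 0. VIM and RUNX2 rose with induction, at 1.44 (SE 0.37, adjusted P = 0.0182) and 1.16 (SE 0.28, adjusted P = 0.0175) on the log2 scale. FN1 at −0.45 (SE 0.18, adjusted P = 0.0680), SPARC at 0.05 and COL1A1 at 0.00 were not called. EPCAM, the 1 epithelial marker that could be tested, had a log2 fold change of 0.61 (SE 0.26, adjusted P = 0.0772). No blood or endothelial marker passed the filter. The nuclear RNA NEAT1 fell by 0.44 (adjusted P = 0.0410) and MALAT1 stood at 0.03 on the log2 scale in the transgene line. The part of these markers in the results was not tested. Uninduced library 5 and induced library 2 stood between the groups. Of the 11 initiation factor mRNAs called below, uninduced library 5 lay on the induced side of the midpoint of the group means for 9 and induced library 2 for only 6, while uninduced libraries 1 to 4 did so for 0 and the other 4 induced libraries for all 11. Calls are therefore given with all libraries and also without these 2, an alternative chosen after the data were seen. Bulk RNA cannot tell fewer cells that express a gene from less RNA per cell.

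Induction of ΔN-RNMT was followed by lower levels of EIF3B, EIF3D, EIF3G, EIF3K and EIF6, and by higher levels of EIF1B, EIF1AD, EIF2A, EIF2B1, EIF2AK2 and EIF3E. Thus 5 of the 32 genes tested fell (15.6%) and 6 rose (18.8%) (edgeR's quasi-likelihood test, with calls at an adjusted P under 0.05), where 19.8% of all 13038 genes tested fell and 20.0% rose. Both shares lay slightly under those of all genes. The other 21 were not called. An unadjusted P below 0.05 was found for 17 of the 32, beside 6949 of all 13038 genes tested. The median log2 fold change was 0.06, beside 0.04 over all genes. EIF3E was the 1 member (3.13% of 32) whose induced and uninduced libraries did not overlap, where 4.22% of all genes were apart in the lower direction and 3.08% in the higher. EIF3C and EIF3L were too low to pass the filter (a base mean above 20).

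**Figure D1:**
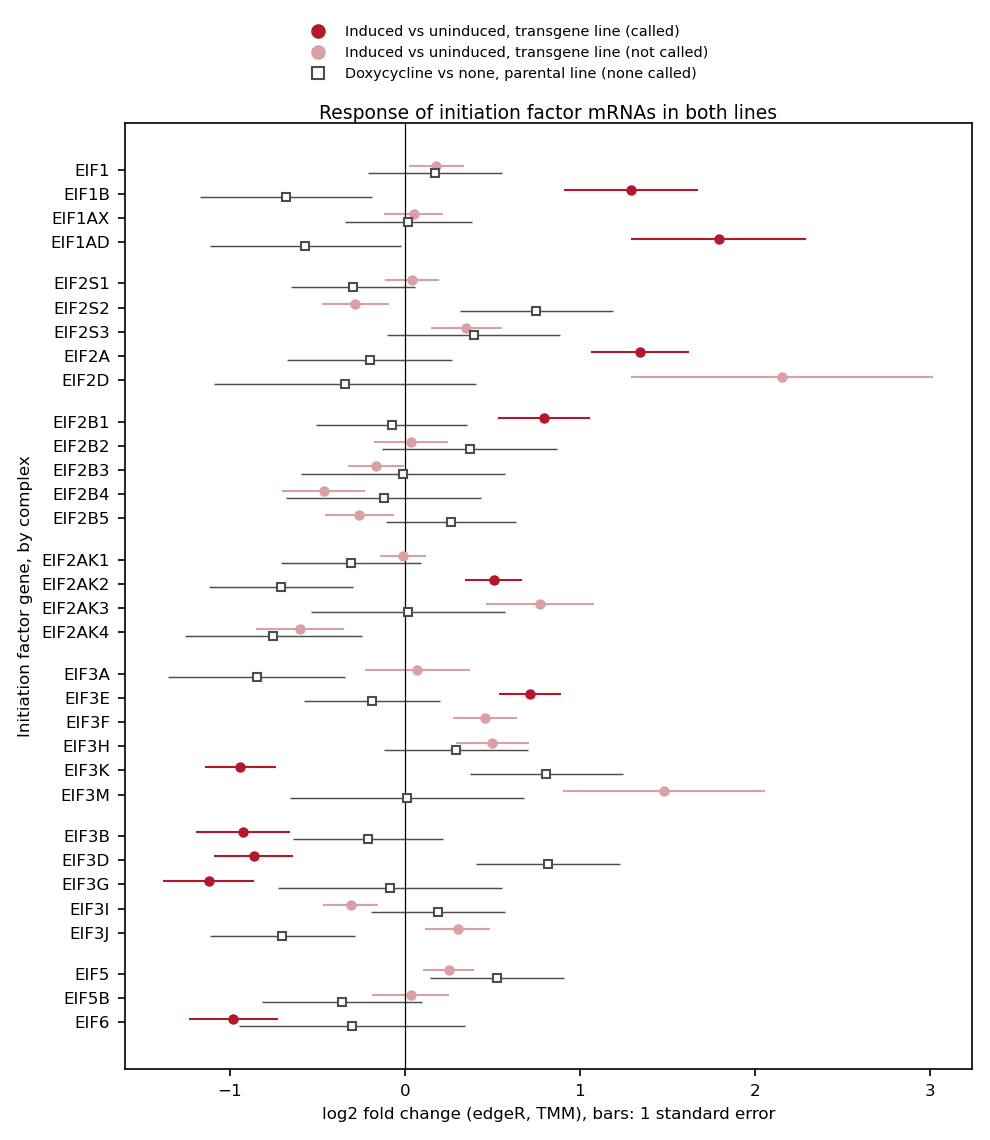
Log2 fold change of each tested gene (x axis, bars of 1 standard error), grouped by complex on the y axis, in the transgene line (circles, dark where called) and in the parental line (open squares). Among the called circles, 4 eIF3 genes and EIF6 lie left of 0, 6 genes lie right of 0, and no parental square was called.

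eIF3 joins the small subunit, the other factors and the mRNA, and is built from an octamer of subunits a, c, e, f, h, k, l and m and the peripheral subunits b, d, g, i and j. Of its 11 tested genes, 4 fell (36.4%) and 1 rose (9.09%), beside the 19.8% and 20.0% of all genes. Of the 5 genes for peripheral subunits, 3 fell and 0 rose, and among the 6 tested octamer genes 1 fell and 1 rose. With so few genes, no departure from the shares of all genes is read from these counts. The median log2 fold change of the 11 was 0.07, beside 0.04 over all genes.

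EIF3D encodes the subunit that can itself bind the cap. Its level was 1607, 1700.4, 1520.2, 1486 and 909 CPM in uninduced libraries 1 to 5 and 619, 1177, 640.1, 720.0 and 809 CPM in induced libraries 1 to 5. Uninduced libraries 1 to 4 were above every induced one, and uninduced library 5 was below induced library 2. The mean was 1444 ± 311 CPM (SD, n = 5) without and 793 ± 227 (SD, n = 5) with induction, a log2 fold change of −0.87 (SE 0.23, adjusted P = 0.0186).

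EIF3K encodes a small octamer subunit that sits at the edge of the complex. Uninduced libraries held 743, 846, 817, 677 and 535 CPM and induced libraries 336, 549, 383, 298 and 321 CPM. The only overlap was again between uninduced library 5 and induced library 2. EIF3K fell 1.92-fold, with a log2 fold change of −0.94 (SE 0.20, adjusted P = 0.0175). It has 3 annotated pseudogenes, and tags that aligned to more than 1 place were not counted.

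EIF3B, which encodes the scaffold of the peripheral subunits, had 360.2, 397, 612, 340.1 and 191 CPM in uninduced and 190.5, 269, 188, 196 and 158 CPM in induced libraries. Uninduced library 5 lay among the induced libraries, and uninduced library 3 lay far above the rest. The log2 fold change was −0.92 (SE 0.27, adjusted P = 0.0234). EIF3G, for a subunit with an RNA-binding domain that works in scanning, showed the same arrangement, with 90.9, 93.9, 150.3, 81.3 and 47.3 CPM in uninduced and 33.4, 51.4, 39.3, 43.2 and 45.6 CPM in induced libraries. It had the largest fall of the 32, 2.18-fold, with a log2 fold change of −1.12 (SE 0.26, adjusted P = 0.0175). The 3′ end of EIF3G overlaps an exon of P2RY11 on the opposite strand, and whether the counting used strand is not given in the sources used here. P2RY11 itself went from 10.1 ± 2.60 CPM (SD, n = 5) without induction to 6.32 ± 1.95 with it (SD, n = 5), which was not called.

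EIF3E encodes an octamer subunit also known as the site of viral integration INT6 in mice. It held 56.9, 45.4, 41.5, 56.7 and 73.7 CPM in uninduced and 90.8, 74.2, 93.1, 107 and 86.3 CPM in induced libraries. Every induced library was above every uninduced one, although induced library 2 and uninduced library 5 differed little. EIF3E rose 1.64-fold, with a log2 fold change of 0.72 (SE 0.18, adjusted P = 0.0177), and it has 3 annotated pseudogenes.

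EIF3M, for another octamer subunit, had the widest spread of the complex. Its uninduced libraries held 33.5, 23.0, 9.09, 39.9 and 138 CPM and its induced libraries 177, 67.4, 161, 136 and 139 CPM. Uninduced library 5 was as high as the induced libraries, and the log2 fold change of 1.48 (SE 0.58, adjusted P = 0.0585) was not called. Without uninduced library 5 it was 2.35 (adjusted P = 5.78e-04), and without induced library 2 it was 1.65 (adjusted P = 0.0409). EIF3F and EIF3H, which encode the pair of octamer subunits with an MPN domain, had log2 fold changes of 0.46 and 0.50 and adjusted P values of 0.0631 and 0.0716. Both were called without uninduced library 5, at 0.51 for EIF3F and 0.69 for EIF3H, and without induced library 2, at 0.54 and 0.58.

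The other eIF3 genes were not called. EIF3A, for the largest subunit, had a log2 fold change of 0.07 (SE 0.30, adjusted P = 0.857) and ranged from 62.9 to 154 CPM in uninduced and from 52.2 to 151 CPM in induced libraries. EIF3I, for a β-propeller subunit that binds EIF3B, stood at −0.31 (SE 0.16, adjusted P = 0.123). EIF3J, for a loosely bound subunit, stood at 0.30 (SE 0.19, adjusted P = 0.197) and was called, among the fits with 1 library left out, only without induced library 5, at 0.43 (adjusted P = 0.0469). Its 3′ end overlaps SPG11 on the opposite strand, which rose in the same comparison (log2 fold change 0.79, adjusted P = 0.0321). The mean of SPG11 was 2.10 CPM without and 3.64 CPM with induction, beside 403 and 496 CPM for EIF3J. EIF3C held 0 to 5 counts in each transgene library and 0 in each parental one, and its near-identical copy EIF3CL was listed at 0 throughout. EIF3L held 0 to 4 counts in each library of the series. The last 75 nt of its canonical transcript overlap an exon of an unnamed gene on the same strand. That gene held 25 to 115 counts in the transgene libraries, so neither its level nor that of EIF3L could be read from these counts.

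**Figure D2:**
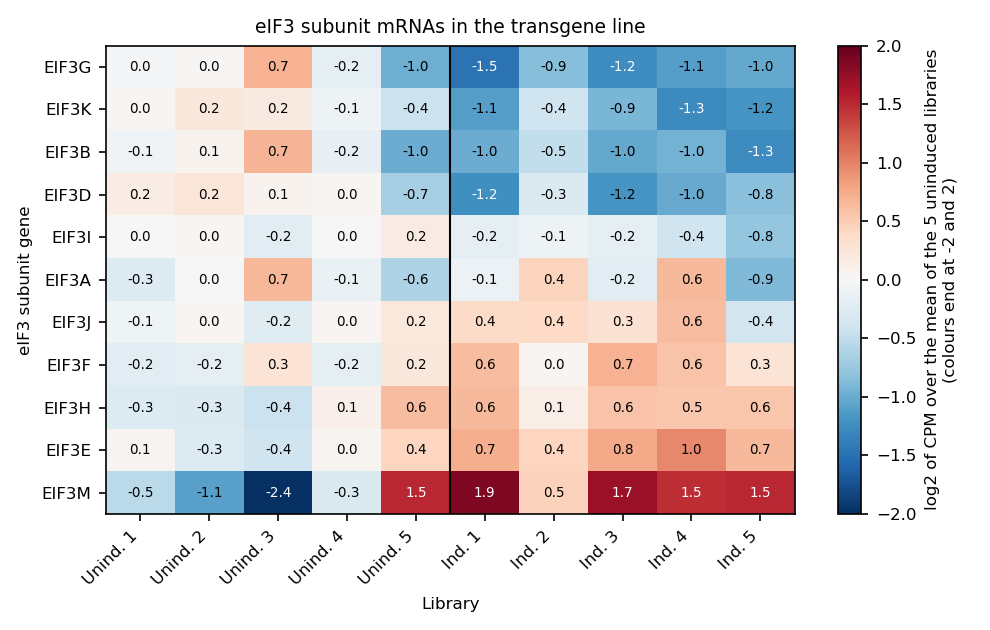
Each cell gives the log2 of a library's CPM over the mean of the 5 uninduced libraries (colour and number), for the 11 tested eIF3 genes (rows, ordered by fold change) in the 10 libraries of the transgene line (columns, uninduced left of the line). Induced libraries 1, 3, 4 and 5 are low for EIF3G, EIF3K, EIF3B and EIF3D and high for EIF3E and EIF3M, and uninduced library 5 lies in the same direction for these 6 genes.

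eIF1 guards the choice of the start codon. EIF1, its main gene, had a log2 fold change of 0.18 (SE 0.16, adjusted P = 0.364), with uninduced libraries from 213 to 337 CPM and induced ones from 265 to 319 CPM. EIF1B, which encodes a close relative of eIF1, rose. Its levels were 9.37, 9.80, 5.38, 11.2 and 27.4 CPM in uninduced and 34.8, 16.9, 34.4, 32.3 and 36.4 CPM in induced libraries, a log2 fold change of 1.29 (SE 0.38, adjusted P = 0.0247). Uninduced library 5 was above induced library 2, and the remaining libraries of the 2 groups were apart. EIF1AX, for eIF1A, which stabilises the scanning complex with eIF1, stood at 0.05 (SE 0.17, adjusted P = 0.822).

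EIF1AD encodes a protein with a domain like that of eIF1A and no established part in initiation. It had 6.74, 7.18, 6.27, 7.20 and 18.9 CPM in uninduced and 44.9, 6.29, 54.6, 27.0 and 28.3 CPM in induced libraries. Induced library 2 was as low as uninduced libraries 1 to 4, and the other 4 induced libraries were above all uninduced ones. EIF1AD rose 3.47-fold, the largest rise among the called genes, with a log2 fold change of 1.79 (SE 0.50, adjusted P = 0.0210).

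None of the genes for the 3 subunits of eIF2 was called. The log2 fold change was 0.04 (SE 0.15, adjusted P = 0.845) for EIF2S1, the α subunit that the kinases phosphorylate, −0.28 (SE 0.19, adjusted P = 0.234) for EIF2S2, the β subunit, and 0.35 (SE 0.20, adjusted P = 0.170) for EIF2S3, the γ subunit that binds GTP and initiator tRNA. EIF2S3 was called without uninduced library 5, at 0.50 (adjusted P = 0.0325).

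EIF2A, a single-chain protein that is not a part of eIF2 and can bring initiator tRNA to the ribosome, rose. Uninduced libraries held 12.5, 9.33, 8.37, 13.0 and 16.2 CPM and induced libraries 41.7, 14.0, 36.4, 29.6 and 29.3 CPM, with induced library 2 below uninduced library 5. The log2 fold change was 1.34 (SE 0.28, adjusted P = 0.0175). EIF2D, which encodes a factor for recycling and non-canonical initiation, had 6.59, 3.91, 2.27, 9.71 and 71.6 CPM in uninduced and 107, 18.0, 103, 82.4 and 111 CPM in induced libraries. Uninduced library 5 exceeded the other uninduced libraries several times over, and the log2 fold change of 2.16 (SE 0.86, adjusted P = 0.0629) was not called. It was 3.88 (adjusted P = 4.10e-04) without uninduced library 5 and 2.42 (adjusted P = 0.0377) without induced library 2.

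eIF2B is a decamer of 5 kinds of subunit, a regulatory set (α, β and δ) and a catalytic pair (γ and ε). EIF2B1, for the α subunit, rose from 12.6, 13.4, 9.48, 17.6 and 29.0 CPM to 29.4, 24.1, 29.5, 30.3 and 29.4 CPM in libraries 1 to 5 of each group. Uninduced library 5 lay within the narrow range of the induced libraries. The log2 fold change was 0.79 (SE 0.26, adjusted P = 0.0343). EIF2B1 overlaps DDX55 on the opposite strand at its 3′ end, and DDX55 was not called (log2 fold change 0.18, adjusted P = 0.557). The others stood at 0.04 (SE 0.21, adjusted P = 0.897) for EIF2B2 (β), −0.16 (SE 0.16, adjusted P = 0.412) for EIF2B3 (γ), −0.46 (SE 0.24, adjusted P = 0.127) for EIF2B4 (δ) and −0.26 (SE 0.20, adjusted P = 0.286) for EIF2B5 (ε). EIF2B4 was called without uninduced library 5, at −0.60 (adjusted P = 0.0275).

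Among the eIF2α kinases, EIF2AK2 rose. It encodes PKR, which is activated by double-stranded RNA. Uninduced libraries held 28.5, 33.7, 36.0, 28.4 and 41.2 CPM and induced libraries 54.9, 37.0, 50.1, 51.7 and 44.6 CPM, a rise of 1.42-fold and a log2 fold change of 0.51 (SE 0.16, adjusted P = 0.0313). Uninduced library 5 exceeded induced library 2, and EIF2AK2 was the 1 called member below the study's 1.5-fold limit. EIF2AK2 overlaps GPATCH11 on the opposite strand at its 3′ end (log2 fold change of GPATCH11 0.20, adjusted P = 0.383). EIF2AK1, for the haem-regulated kinase HRI, had a log2 fold change of −0.01 (SE 0.13, adjusted P = 0.949). The values were 0.77 (SE 0.31, adjusted P = 0.0616) for EIF2AK3, the kinase PERK of the endoplasmic reticulum, and −0.60 (SE 0.25, adjusted P = 0.0713) for EIF2AK4, the amino acid sensor GCN2. Both were called without uninduced library 5, at 0.87 for EIF2AK3 and −0.75 for EIF2AK4, and without induced library 2, at 0.87 and −0.73.

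EIF6, for the factor that keeps large ribosomal subunits apart from small ones and works in their assembly, fell. It had 169, 191, 256, 149 and 95.7 CPM in uninduced and 68.5, 121, 73.3, 78.7 and 94.7 CPM in induced libraries. Uninduced library 5 lay between induced libraries 5 and 2, and every other uninduced library was above all induced ones. The fall was 1.97-fold, a log2 fold change of −0.98 (SE 0.25, adjusted P = 0.0184). EIF5 and EIF5B, which act at and after recognition of the start codon, stood at 0.25 (SE 0.15, adjusted P = 0.180) and 0.03 (SE 0.22, adjusted P = 0.908). EIF5B overlaps REV1 on the opposite strand at its 3′ end, and REV1 rose (log2 fold change 0.93, adjusted P = 0.0187). The mean of REV1 was 11.2 CPM without and 21.2 CPM with induction, beside 282 and 289 CPM for EIF5B.

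**Figure D3:**
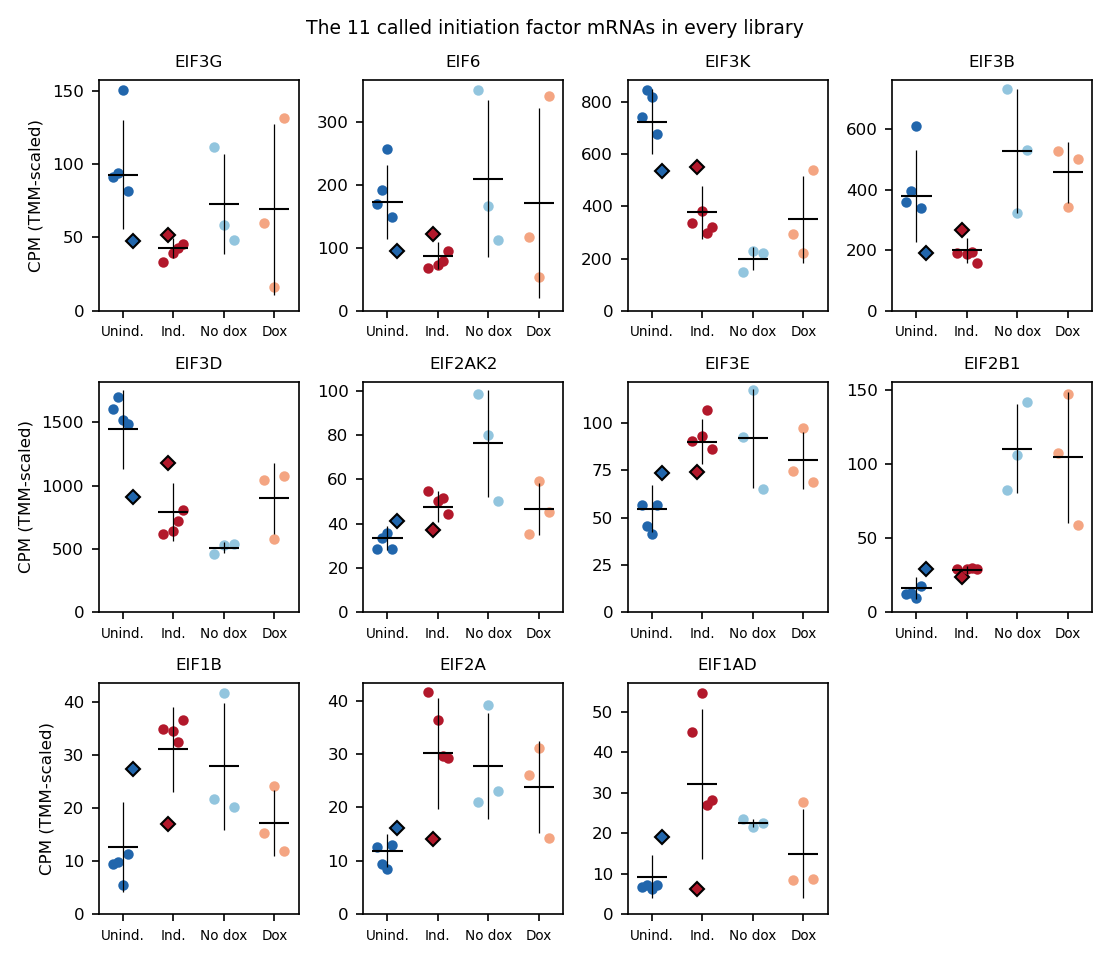
CPM (y axis, from 0) of the 11 called genes in every library of the 4 groups (x axis), with horizontal lines for means and vertical lines of 1 SD. Diamonds mark uninduced library 5 and induced library 2, which often lie between the groups or on the other group's side, and the parental groups overlap for 10 of the 11 genes.

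Several of these calls depended on single libraries. EIF3K, EIF3G, EIF2A and EIF3E were called whichever of the 10 libraries was left out, but only just without induced library 1 (adjusted P = 0.0495 for each). EIF6 was lost without induced library 1, at −0.90 (adjusted P = 0.0506). EIF3D was lost without induced library 1, at −0.78 (adjusted P = 0.0513), and without induced library 4, at −0.83 (adjusted P = 0.0503). EIF1AD was lost without uninduced library 1 or 2 or induced library 1 or 3, at 1.52 to 1.72, and EIF3B without uninduced library 2 or induced library 1, 3, 4 or 5, at −0.92 to −0.85. EIF2B1 was called only without uninduced library 5 or induced library 2, and was at 0.64 to 0.82 in the other 8 fits. EIF1B was called only without uninduced library 3 or 5 or induced library 2, with adjusted P values of up to 0.0603 otherwise. EIF2AK2 was lost without uninduced library 1, 2 or 4 or induced library 1, 3 or 4, at 0.45 to 0.50. Without uninduced library 5 and induced library 2 together, 7 members fell and 12 rose, while 64.3% of all genes were then called. The 11 genes called with every library were among them, which is no support for those calls, since both libraries were picked for lying between the groups in these same genes. The direction of each of the 11 stayed the same when single libraries were left out.

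The size and direction of the response moved with the GC content of the transcripts. The 5 genes that fell had GC contents of 50.9 to 60.2%, and the 6 that rose of 37.2 to 49.4%. Over the 32 genes the Spearman correlation of log2 fold change with GC content was −0.58, and over 12922 genes with a GC value it was −0.43, where the genes share all 10 libraries. With offsets for GC content, which took the correlation over all genes to 0.01, the correlation over the 32 genes was −0.37. EIF3D, EIF3G, EIF3K, EIF6, EIF2A, EIF1AD and EIF1B were still called, with EIF3D at −0.84, EIF3K at −0.80 and EIF3G at −0.72. Lost were EIF3E, at 0.24 (adjusted P = 0.148), EIF2AK2, at 0.05 (adjusted P = 0.791), EIF2B1, at 0.60 (adjusted P = 0.0620), and EIF3B, at −0.62 (adjusted P = 0.0624). The part of GC content in the response was not tested.

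**Figure D4:**
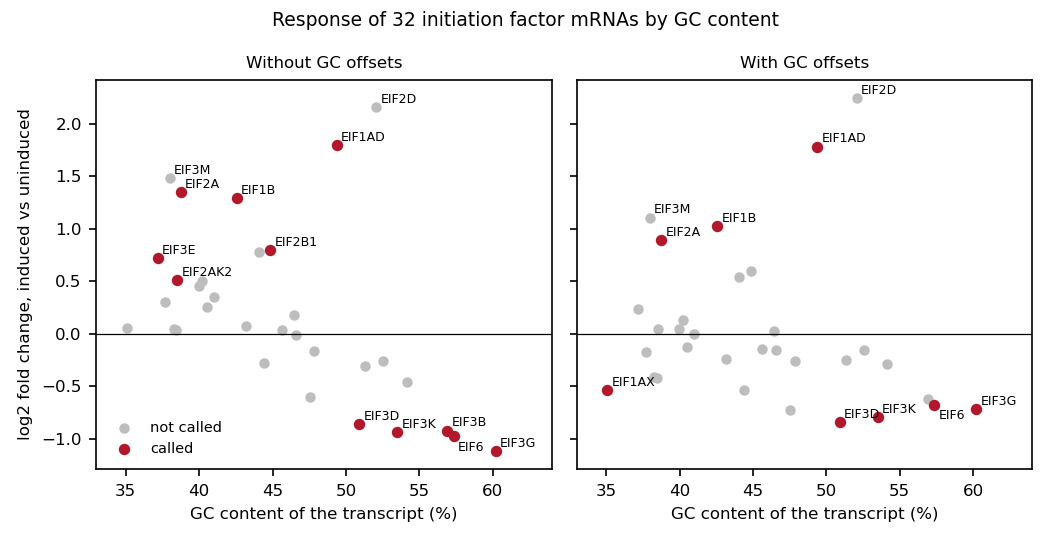
Log2 fold change on induction (y axis) against GC content of the canonical transcript in percent (x axis) for the 32 tested genes, without (left) and with (right) offsets for GC content. Called genes (dark) with GC contents above 50% fell and those below 50% rose on the left. On the right 8 genes are called, EIF1AX among them on the lower side.

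Doxycycline alone, in the parental line, gave no called member. Of the 31 members tested there, 0 had an adjusted P below 0.05 and 0 an unadjusted P below 0.05 in edgeR's test, and DESeq2's Wald test also called 0, where edgeR passed 0% of 9124 genes at the adjusted and 2.93% at the unadjusted threshold. Log2 fold changes ran from −0.85 for EIF3A to 0.82 for EIF3D, with standard errors of 0.35 to 0.75 against 0.13 to 0.86 in the transgene line. The share of counts on mitochondrial genes was 1.76 to 9.38% in this line and 0.854 to 1.52% in the other. Tags outside genes, per gene count, were at least 1.11 in every parental library and at most 0.106 in every transgene library. The part of either in the parental values, or in the comparison of the lines below, was not tested.

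The groups of 3 did not overlap for 4 of the 31 members (12.9%), beside 9.52% of all genes. EIF3D had 459, 529 and 541 CPM without and 1045, 575 and 1077 CPM with doxycycline, and EIF2S2 had 289.6, 592 and 648 and 994, 870.2 and 713 CPM. Both were higher in all 3 treated libraries, opposite in sign to their log2 fold changes in the transgene line. EIF2S1, with 240.4, 289 and 255 CPM without and 226, 209 and 203 CPM with the drug, and EIF2AK1, with 720.1, 741 and 844 and 715, 717 and 426 CPM, were lower in all 3. EIF3K had 149, 228 and 222 CPM without and 294, 220.4 and 537 CPM with doxycycline, groups that overlapped.

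The response to doxycycline differed between the lines for EIF3K and EIF3D when the difference itself was tested over all 16 libraries. It was lower in the transgene line, with a log2 difference of −1.99 (SE 0.46, adjusted P = 0.0408) for EIF3K and −1.91 (SE 0.44, adjusted P = 0.0408) for EIF3D. These were 2 of 32 members (6.25%), beside 2.98% of the 12265 genes tested. An unadjusted P below 0.05 was found for 8 of the 32 members, beside 3197 of the 12265 genes. In the parental line itself the log2 fold changes were 0.81 (SE 0.44) and 0.82 (SE 0.41), so the difference holds a fall in the transgene line and a value above 0 in the parental line that was not called. Both calls were lost without any 1 of uninduced libraries 1 to 4, induced libraries 1, 3, 4 and 5, parental libraries 1 and 2 without the drug, or parental libraries 1 and 3 with it. The difference then ran from −2.02 to −1.51 for EIF3K and from −1.91 to −1.64 for EIF3D, with adjusted P values of up to 0.130. The nuclear RNA MALAT1 went the opposite way to EIF3K and EIF3D. It held 1278, 303 and 597 CPM in parental libraries without and 126, 123 and 118 CPM in those with doxycycline, groups that did not overlap. Its log2 fold change there was −2.57 (SE 0.54, adjusted P = 0.997), with an unadjusted P of 5.82e-04, and its difference between the lines was called, at 2.37 (SE 0.52, adjusted P = 0.0405). NEAT1, the other nuclear RNA read, had a log2 fold change of −0.50 (SE 0.50, adjusted P = 0.997) in the parental line, where its groups overlapped. The difference of NEAT1 between the lines, at −0.17 (SE 0.46, adjusted P = 0.848), was not called. The part of either RNA in the values of EIF3D and EIF3K was not tested. For the other 9 called members the difference between lines was not called, which does not show that the lines responded alike.

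A list of 21 genes whose products assemble, recycle or regulate these factors gave 2 of 20 tested lower (10.0%) and 6 higher (30.0%), beside the 19.8% and 20.0% of all genes, with a median log2 fold change of 0.31. MCTS1, whose product works with DENR in recycling and reinitiation, had 227, 226, 351, 207 and 143 CPM in uninduced and 121, 142, 126, 111 and 105 CPM in induced libraries. The groups did not overlap, by a narrow margin between uninduced library 5 and induced library 2, and the log2 fold change was −0.93 (SE 0.21, adjusted P = 0.0175). TARBP2, for an RNA-binding protein that inhibits PKR, fell by 0.62 on the log2 scale (adjusted P = 0.0207). The largest rises were those of NCK1, for an adaptor protein that associates with eIF2 and a phosphatase of it, at 1.47 (SE 0.35, adjusted P = 0.0175), and EFL1, for the GTPase that helps release eIF6 from the large subunit, at 1.38 (SE 0.34, adjusted P = 0.0177). Both rose from low levels, NCK1 from 1.97 ± 0.861 to 5.54 ± 1.98 CPM (SD, n = 5) and EFL1 from 5.03 ± 1.96 to 13.2 ± 5.58 CPM (SD, n = 5).

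EIF2AK2 is an interferon-induced gene, so 12 genes of that response were read beside it. Of the 7 that could be tested, 2 fell (IFI6 at −0.87 (SE 0.26, adjusted P = 0.0243) and ISG15 at −0.82 (SE 0.24, adjusted P = 0.0240)) and 1 rose (RIGI at 0.81 (SE 0.19, adjusted P = 0.0175)), with a median of −0.22, counts that stand beside the 19.8% and 20.0% of all genes. Targets of phosphorylated eIF2α were read beside the kinases. Of 12 such genes, 4 fell and 1 rose, beside the same shares of all genes (19.8% and 20.0%), with a median of −0.41 against 0.04 over all genes. ASNS, for asparagine synthetase, fell by 1.08 and ATF4, for the transcription factor of this response, by 1.07 on the log2 scale (adjusted P = 0.0186 and 0.0251), and ATF3 rose at 0.95 (SE 0.32, adjusted P = 0.0359). ATF4 held 1589.8, 1713, 2201, 1451 and 1000.4 CPM in uninduced and 872, 1139, 860.1, 625 and 304 CPM in induced libraries, which overlapped between uninduced library 5 and induced library 2. mRNA levels do not measure the phosphorylation of eIF2α.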

How the data were processed

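The authors deposited unnormalized tag counts per Ensembl gene for each of the 16 libraries, made from QuantSeq REV 3′ end libraries with the Lexogen pipeline for GRCh38. The aligner, the annotation release and the use of strand are not given in the sources used here. The 92 spike-in entries, all at 0, and the 5 summary entries were left out. Genes with a base mean above 20 over the libraries fitted were tested by edgeR's quasi-likelihood method after TMM scaling (edgeR 4.0.16 in R 4.3.3), P values were adjusted over all genes tested by Benjamini-Hochberg, and those under 0.05 were called. The SE was the size of the log2 fold change divided by the square root of F. Alternatives were DESeq2's size factors and Wald test (1.42.0), scaling by total counts, other filters (filterByExpr or none), a replicate block, lowess offsets fitted to GC content (span 0.5) either alone or together with the block, 1 surrogate variable (sva 3.50.0), single libraries left out in turn, and, added after seeing the data, uninduced library 5 and induced library 2 left out together. Scripts were tested on simulated data. P values set the difference between groups against the spread between these libraries. The transgene libraries all come from a single clone, so their P values do not reach other clones. Differences between libraries of a group exceeded sampling noise in every pair, the closest being induced 1 and 3 (chi-square per degree of freedom 4.26). Replicate numbers did not pair the libraries. All 34 members are named, with values per library for called members and for examples of each complex. Of other lists the 2 largest called falls and rises are named. The members and lists were chosen with earlier results of these data known.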

Additional observations from a re-analysis of the deposited data

Results flagged for a closer look

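Of 68 groups of 5 libraries, 9 had 1 library far from the other 4 by Dixon's test. The test's rate of about 1 group in 20 holds for independent groups. These groups share the same libraries and no rate over all genes was computed, so no excess is read from the 9. Uninduced library 5 was the one for EIF1B (27.4 CPM), EIF1AD (18.9), EIF2D (71.6), EIF3M (138) and EIF3D (909). For the first 4 it was the highest of its group and for EIF3D the lowest. Induced library 2 was the lowest of its group for EIF1B (16.9 CPM), EIF2B1 (24.1) and EIF3H (94.2). Uninduced library 3 was the lowest for EIF2B2 (15.0 CPM). The difference between the lines in the response to doxycycline was past the threshold for EIF3K (−1.99 on the log2 scale) and EIF3D (−1.91).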

How the results depend on the processing

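The 5 members that fell stayed within 1.5 times that count except with 1 surrogate variable (0) and when 1 library was left out (2 to 7), and the 6 that rose became 12 with total counts alone, 3 with GC offsets, 0 with 1 surrogate variable, 12 without uninduced library 5 and induced library 2 together, and 2 to 12 when 1 library was left out. Over all genes the median log2 value moved from 0.04 to 0.28 with total counts alone. Genes called higher went from 2604 of 13038 to 4019 with total counts alone, 1552 with GC offsets and 4380 of 12956 without both libraries. With 1 library left out they numbered 916 to 4049. Of the eIF3 genes, 4 fell (0 with 1 surrogate variable, 2 to 4 with 1 library left out), and the 1 that rose became 5 with total counts alone, 2 with the DESeq2 Wald test, 2 with no filter, 2 with the replicate block, 0 with GC offsets, 0 with 1 surrogate variable, 4 without both libraries and 1 to 4 with 1 library left out. With 1 surrogate variable only 1 of all 13038 genes was called. The parental count was 0 in every fit. The 2 differences between lines became 1 with total counts alone, 6 with the DESeq2 Wald test, 0 with filterByExpr, 0 with no filter, 1 with the replicate block, 0 with GC offsets and the replicate block, 10 without both libraries and 0 to 6 with 1 library left out. Over all genes the 365 differences became, in the same order, 447, 1478, 3, 150, 222, 186, 3040 and 0 to 2291. Partner genes lower (2) became 1 with total counts alone, 4 with GC offsets and the replicate block, 0 with 1 surrogate variable and 1 to 3 with 1 library left out. Partner genes higher (6) became 0 with 1 surrogate variable, 10 without both libraries and 2 to 8 with 1 library left out. EIF1AX turned from 0.05 to −0.54 with GC offsets (adjusted P = 0.0485) and −0.54 with GC offsets and the replicate block (adjusted P = 0.0275). RNMT stayed between 1.87 and 2.45 in the other fits and between 2.10 and 2.40 with 1 library left out. The cause of these changes was not tested. Same-numbered libraries of the transgene line correlated at −0.25 to 0.63 in their deviations from the group means, and 1 library of each line correlated best with its own number, so the numbers were not treated as pairs. The replicate block gave 5 members lower and 8 higher. At the lower depth of the parental line 31 members passed the filter, against 32 in the transgene line. EIF3C and EIF3L passed it in neither, and with no filter 34 members were tested in the transgene and 33 in the parental line.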
